A study of Mus musculus with 4 samples.

Results

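The CXC chemokines described here are 7 of the 32285 genes in the deposited count tables: Cxcl1, Cxcl2, Cxcl9, Cxcl10, Cxcl13, Cxcl14 and Cxcl16, found by their gene symbols. They were measured in single-cell RNA sequencing of 4 libraries of CD11b-selected brain cells, each from 1 mouse. Both injured mice were taken at day 6 after a cerebrovascular injury (CVI), made with pulsed ultrasound over a thinned skull window after intravenous microspheres: 1 is labelled IL6 KO (-/-) and 1 IL6 WT (+/+). Both control mice, again 1 labelled IL6 KO (-/-) and 1 IL6 WT (+/+), had sham surgery (Ctrl) according to their sample label, at 6 days, while the extraction protocol calls controls uninjured. The mice were 8 to 12 weeks old. Brain tissue from a 4 mm punch was dissociated and, after myelin removal, cells binding CD11b microbeads were kept for 10x 3′ v3 library preparation. The labels give protocols for mild and for severe injury without saying which was used, and do not name the targeted part of Il6. Each group is 1 library, so no p-values are given and every value describes these libraries.

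CXC chemokines are small proteins that bind G-protein-coupled receptors and direct the movement of leukocytes. Cxcl1 and Cxcl2 act through Cxcr2 and attract neutrophils, whereas Cxcl9 and Cxcl10 are interferon-induced ligands of Cxcr3 on T and NK cells. Cxcl13 attracts B cells through Cxcr5, Cxcl16 is made as a membrane protein that Adam10 can shed and binds Cxcr6, and the receptor of Cxcl14 is less settled. In the brain, microglia, border macrophages, infiltrating myeloid cells and vascular cells are known sources of some of these ligands.

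Of the 7 genes, 5 lie on chromosome 5 of GRCm38 (GENCODE M21 positions, all protein coding). Cxcl1 (chr5:90891241-90893115, plus strand) and Cxcl2 (chr5:90903871-90905938, plus strand) are 10.755 kb apart, and Cxcl9 (chr5:92321347-92328079, minus strand) and Cxcl10 (chr5:92346638-92348889, minus strand) are 18.558 kb apart, with 0 other coding genes inside either gap. Cxcl13 lies at chr5:95956951-95961068 (plus strand), Cxcl14 at chr13:56288643-56296551 (minus strand) and Cxcl16 at chr11:70453983-70459984 (minus strand). Cxcl10 overlaps Art3 and Cxcl16 overlaps Zmynd15 on the opposite strand, and since the sources used here do not say whether counting used strand, reads of these partners cannot be told apart. Cxcl2 shares a run of 157 identical bases with transcripts of its neighbour Cxcl3, so reads could be split between that pair; Cxcl3 had 27 UMIs in all.

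The 250 bases before the start sites of the neutrophil-attracting pair and of the interferon-induced pair are shown because these genes hold the results below. They are from RefSeq on GRCm38.p6, written 5′ to 3′ on the gene's strand: Cxcl1 chr5:90890995-90891244 (plus), Cxcl2 chr5:90903649-90903898 (plus), Cxcl9 chr5:92328080-92328329 (minus) and Cxcl10 chr5:92348890-92349139 (minus). Capitals mark matches, on either strand, to the NF-kB motif GGGNNNTNCC (kappa B) or to the interferon-stimulated response element GAAANNGAAA.
Cxcl1: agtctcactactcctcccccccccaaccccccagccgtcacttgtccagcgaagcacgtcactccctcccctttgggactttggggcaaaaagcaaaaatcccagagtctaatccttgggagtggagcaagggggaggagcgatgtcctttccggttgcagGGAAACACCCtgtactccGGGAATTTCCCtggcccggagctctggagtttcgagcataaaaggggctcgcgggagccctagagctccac
Cxcl2: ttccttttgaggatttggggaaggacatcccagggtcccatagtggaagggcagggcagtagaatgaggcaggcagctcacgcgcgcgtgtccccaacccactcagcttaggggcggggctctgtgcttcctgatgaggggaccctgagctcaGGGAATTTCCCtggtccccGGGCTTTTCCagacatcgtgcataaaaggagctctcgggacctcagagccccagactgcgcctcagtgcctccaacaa
Cxcl9: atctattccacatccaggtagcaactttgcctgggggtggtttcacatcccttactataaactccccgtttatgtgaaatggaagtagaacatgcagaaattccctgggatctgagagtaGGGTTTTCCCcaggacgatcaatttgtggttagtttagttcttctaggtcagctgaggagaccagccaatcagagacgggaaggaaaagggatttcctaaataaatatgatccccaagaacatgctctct
Cxcl10: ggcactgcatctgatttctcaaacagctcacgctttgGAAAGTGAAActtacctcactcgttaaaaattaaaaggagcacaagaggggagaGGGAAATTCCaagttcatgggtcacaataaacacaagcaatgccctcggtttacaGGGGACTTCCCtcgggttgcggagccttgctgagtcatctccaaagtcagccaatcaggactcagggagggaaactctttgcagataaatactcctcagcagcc
Counting back from the start site, Cxcl1 had kappa B matches at -89 to -80 and -71 to -62, Cxcl2 at -97 to -88 and -78 to -69, and Cxcl9 a single one at -130 to -121. Cxcl10 had kappa B matches at -159 to -150 and -104 to -95 and the interferon element at -213 to -204. The matches of Cxcl1 at -71, of Cxcl2 at -97 and of Cxcl10 at -104 each overlap a further kappa B match shifted by 1 base. Of 32851 RefSeq promoter windows, which run from 250 bases before to 50 after a start site, 17.4% held the kappa B letters and 3.44% the interferon element. Cxcl13 had a kappa B match at -63 to -54 and Cxcl14 an interferon element at -172 to -163; 6 of the 7 genes had a window in the table, and Cxcl16 is named only. A match is a description of letters and says nothing of binding.

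Il6 itself was detected in all 4 libraries, at 22.0 CPM (UMIs of the gene per 1000000 UMIs of the cells summed) in injured knockout-labelled cells, 4.65 CPM in the injured wild type, 25.3 CPM in the knockout-labelled sham and 10.6 CPM in the wild-type sham. It was higher in each knockout-labelled library than in wild type, and 3′ tags do not test a deletion elsewhere in the gene, so the libraries are called knockout-labelled throughout. After filtering, 957 to 2883 cells per library were analysed, with median depths of 7638 to 10016 UMIs. The sham libraries shared 135 cell barcodes, of which 19 were analysed cells, and any other pair shared at most 14. Itgam, which encodes CD11b, was at 248 to 549 CPM over all cells.

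Cells were put into classes by raw counts of fixed marker genes. In the injured knockout-labelled, injured wild-type, knockout-labelled sham and wild-type sham libraries, in that order here and below, there were 1973, 1488, 1105 and 683 microglia (marked by genes such as P2ry12 and Tmem119), 106, 735, 5 and 21 Lyz2/Ms4a7 macrophages, 47, 76, 51 and 58 border macrophages (marked by Mrc1 and others) and 126, 74, 47 and 23 endothelial cells (marked by Cldn5 and others). A microglial cell had a median of 9 of 9 microglia markers and an endothelial cell 10 of 10 endothelial markers. Lyz2/Ms4a7 macrophages were less clear-cut: a cell had a median of 4 of 10 of their own markers and 5 of 9 microglia markers, although their P2ry12 was at 115 and 111 CPM in the injured libraries, against 1241 and 905 CPM in microglia. Endothelial cells came through the CD11b selection and had almost no Ptprc (0 to 15.5 CPM); they serve here as the class that shows how much signal of myeloid genes reaches other cells. Lyz2, a macrophage gene, was at 36.7, 344, 5.60 and 31.5 CPM in them, highest in the injured wild-type library, which also held the most macrophages. The border macrophage gate was mixed in 1 library: 25 of its 76 cells in the injured wild type fell in a Lyz2-led cluster (c19), against 93.6% to 96.1% of the gate in the Mrc1-led cluster c7 elsewhere. Border values are therefore given both for the gate and within c7, and fewer cells of a type and less RNA per cell cannot be told apart in any summed value.

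**Figure D1:**
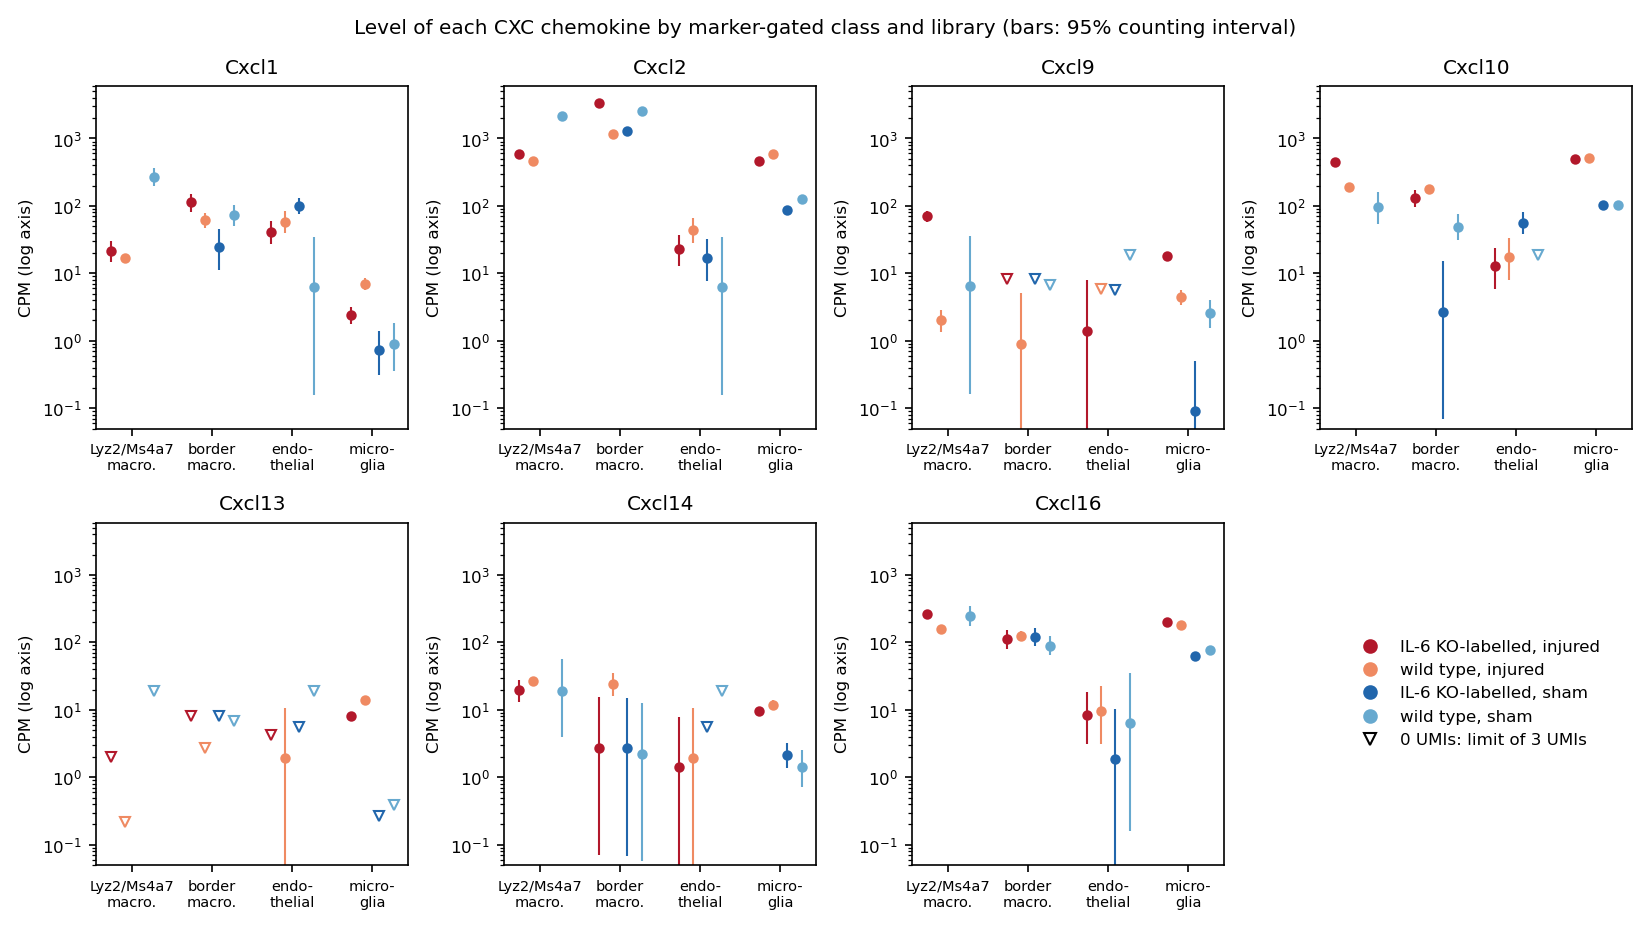
Level of each CXC chemokine (CPM of summed UMIs, log axis) by cell class and library, with exact 95% Poisson intervals; open triangles mark 0 UMIs at the limit of 3 UMIs, intervals that run below the axis are cut off there, and classes under 20 cells are not drawn. Of the classes drawn, Cxcl2 is highest in border macrophages, between 1177 and 3349 CPM, while Cxcl10 and Cxcl16 in microglia are higher in both injured libraries than in either sham library.

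Cxcl1, a neutrophil attractant, was rare in microglia and sat mostly in other classes. Microglia held 47, 99, 8 and 7 UMIs, or 2.42, 7.03, 0.718 and 0.900 CPM in the injured knockout-labelled, injured wild-type, knockout-labelled sham and wild-type sham libraries. Both injured libraries were above both sham libraries, but no value reached the 20 CPM needed for a call. The injured-over-sham ratio was 3.37 in the knockout-labelled pair (95% interval 1.58 to 8.25) and 7.81 in the wild-type pair (3.65 to 19.9). All intervals cover counting error only; they leave out differences between mice and treat the UMIs of 1 cell as independent.

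Border macrophages had more Cxcl1 per UMI than microglia in every library. They reached 112, 60.9, 24.3 and 74.1 CPM, which was 46.4, 8.66, 33.9 and 82.4 times the microglial level of the same library. Within cluster c7 the levels were 112, 228, 26.6 and 74.3 CPM, so the injured wild type was then the highest. The injured-over-sham ratio in c7 was 4.21 (1.99 to 9.91) in the knockout-labelled pair and 3.06 (1.95 to 4.93) in the wild-type pair. A single cell held 27 of 37, 30 of 64, 9 of 9 and 14 of 29 Cxcl1 UMIs in c7. Levels in this class rested on few positive cells, with 7 of 47 in the injured knockout-labelled gate and 1 of 51 in the knockout-labelled sham gate. Lyz2/Ms4a7 macrophages had 21.6 CPM in the injured knockout-labelled and 16.7 CPM in the injured wild-type library, a ratio of 1.29 (0.865 to 1.88). Within cluster c19 these macrophages held 0 UMIs in the knockout-labelled and 144 UMIs (19.7 CPM) in the wild-type library, and within the Cd5l- and Spp1-led c17 0 and 73 UMIs (15.6 CPM), so the direction was the other way there, with upper 95% limits of the ratio of 0.318 and 0.724. All 32 injured knockout-labelled UMIs were in the 48 cells outside c19 and c17, 16 of them in c7. In the wild-type sham, 42 UMIs came from 2 of 21 cells, and 18 of those 21 cells fell in the border cluster c7. Endothelial cells had 40.9, 58.1, 101 and 6.30 CPM; in the injured wild type, 86.7% of that came from a single cell.

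Cxcl2, the other Cxcr2 ligand, was higher in microglia of both injured libraries. Its level was 462 CPM in injured knockout-labelled cells and 581 CPM in the injured wild type, against 88.4 CPM in the knockout-labelled sham and 127 CPM in the wild-type sham. The lowest injured value was above the highest sham value. How many of all tested genes separate in this way is not given here, so such statements describe the values only. The ratio of injured over sham was 5.23 (4.90 to 5.59; log2 2.26) in the knockout-labelled pair and 4.59 (4.29 to 4.90; log2 2.11) in the wild-type pair. In microglia the 10 markers of Lyz2/Ms4a7 macrophages moved with injury too, summing to 1727, 2447, 371 and 442 CPM, with Ms4a7 at 0 by the gate; their part in the result was not tested. Knockout-labelled microglia were below wild type in both states, with a ratio of 0.796 (0.772 to 0.820) after injury and 0.698 (0.638 to 0.763) after sham surgery, both short of 2-fold.

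More microglia carried Cxcl2 after injury, and positive cells carried more on average. With each cell thinned to 3000 UMIs (1836, 1412, 988 and 595 cells kept), 21.02%, 27.5%, 5.47% and 9.58% of microglia had a Cxcl2 UMI. Without thinning the shares were 27.2%, 36.0%, 7.78% and 13.9%. Endothelial cells, which are shallower (median 4311.5, 4448.5, 6171 and 5129 UMIs, against 8766, 8251.5, 8631 and 8577 UMIs in microglia), gave 8.08%, 9.09%, 0% and 0% after thinning, of 99, 55, 41 and 21 cells. In every library the microglial share was above the endothelial one. Positive microglia held 16.7, 15.3, 11.4 and 10.4 Cxcl2 UMIs on average before thinning. Their medians were closer, at 7, 7, 6 and 5 UMIs, and 1 cell held up to 190, 141, 68 and 74. The distribution was therefore uneven: the 1% of microglia with most Cxcl2 held 22.4% of its UMIs in the injured knockout-labelled library and 50.9% in the knockout-labelled sham.

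**Figure D2:**
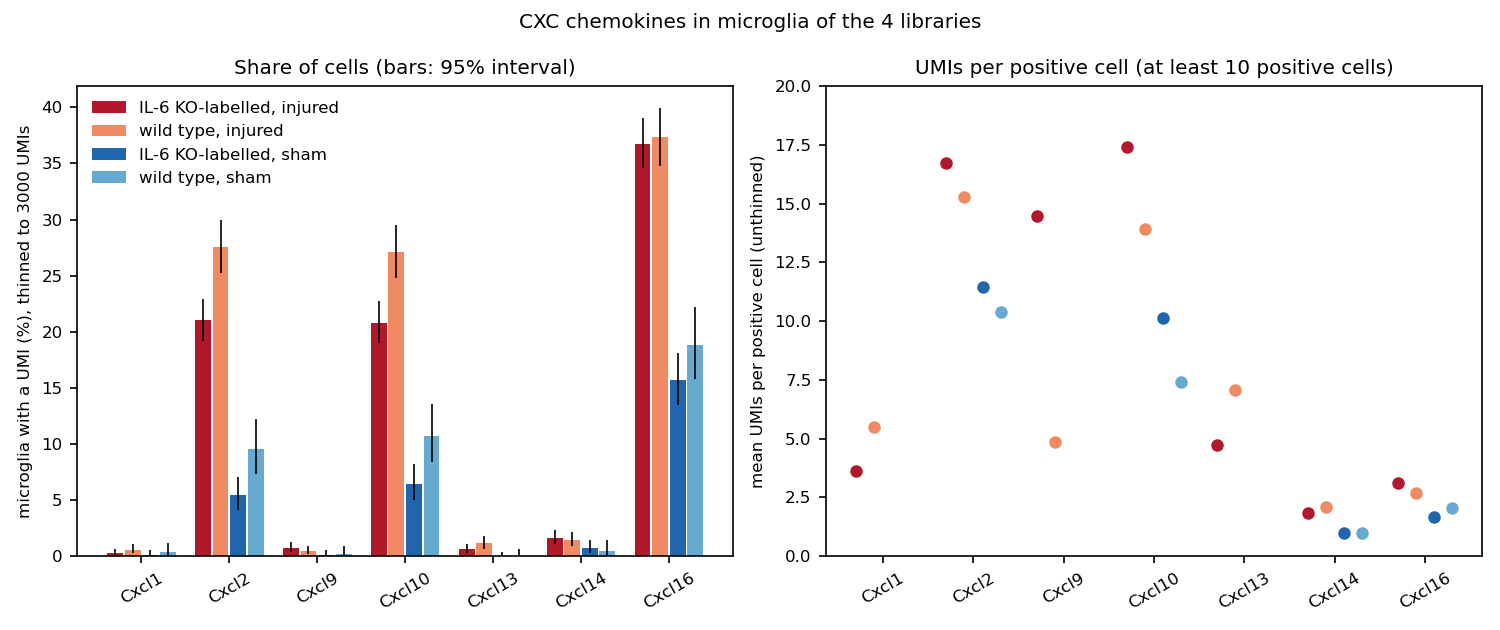
Left: share of microglia with at least 1 UMI of each chemokine after thinning each cell to 3000 UMIs, in percent with exact 95% Clopper-Pearson intervals; right: mean UMIs per positive cell before thinning, where at least 10 cells were positive. For Cxcl2, Cxcl10 and Cxcl16 both the share and the mean UMIs per positive cell are higher in the injured libraries, with Cxcl2 at 21.02% and 27.5% of cells against 5.47% and 9.58%.

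Border macrophages had the highest Cxcl2 of the 4 main classes in each injured library and more than microglia in each library. The gate held 3349, 1177, 1287 and 2514 CPM, which was 7.25, 2.03, 14.6 and 19.8 times the microglial level. In the gate the injured-over-sham ratio was 2.60 (2.34 to 2.90) in the knockout-labelled pair but 0.468 (0.432 to 0.508) in the wild-type pair. A single cell held 19.1%, 10.2%, 23.7% and 30.1% of the gate's Cxcl2 UMIs. The 25 cells of the injured wild-type gate in c19 had 161 CPM of Cxcl2, 44.5 CPM of Mrc1 and 46163 CPM of Lyz2. Over the whole gate the 8 border markers summed to 6364, 2346, 6651 and 6462 CPM and the 10 markers of Lyz2/Ms4a7 macrophages to 10749, 34621, 9751 and 10771 CPM, so the injured wild-type gate stood apart in both. Within c7 the Cxcl2 levels were 3543, 3861, 1407 and 2744 CPM, and both injured libraries were above both sham libraries. The ratio in c7 was 2.52 (2.26 to 2.81) in the knockout-labelled pair and 1.41 (1.29 to 1.53) in the wild-type pair. In c7 the top cell held 233 of 1171, 132 of 1086, 113 of 476 and 337 of 1071 UMIs. The direction in wild type thus differed between the gate and c7, and with classes taken from clusters in place of gates the wild-type pair was level (log2 0.00094).

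Lyz2/Ms4a7 macrophages had 584 CPM of Cxcl2 when injured and knockout-labelled and 458 CPM in the injured wild type, a ratio of 1.28 (1.19 to 1.37). Within both of their main clusters the direction was the other way: 287 CPM in knockout-labelled and 419 CPM in wild-type cells of the Lyz2-led c19 (ratio 0.685, 0.583 to 0.799), and 47.9 and 381 CPM in c17 (0.126, 0.0716 to 0.205), where 12 knockout-labelled cells held 16 UMIs. Outside c19 and c17, 48 knockout-labelled cells held 679 of the 866 UMIs (1228 CPM) and 101 wild-type cells 1534 of 6373 (788 CPM). Of these, 24 knockout-labelled cells in the border cluster c7 held 305 UMIs (1800 CPM), and 7 wild-type ones 44 UMIs (363 CPM). The levels of the whole class were 1.26 and 0.788 times those of microglia of the same libraries. After thinning, 23.0% and 30.7% of these macrophages had a Cxcl2 UMI, and 35.8% and 46.5% without thinning (median depth 12523 and 17142 UMIs). In the sham libraries the class held 5 and 21 cells, 5 and 18 of them in the border cluster c7, and is not compared. Endothelial cells had 22.6, 44.5, 16.8 and 6.30 CPM. Neutrophils, the target cells of this ligand, carried 599.6, 1377, 164 and 1075 CPM, in 2 of 7, 13 of 31, 2 of 7 and 3 of 10 cells.

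**Figure D3:**
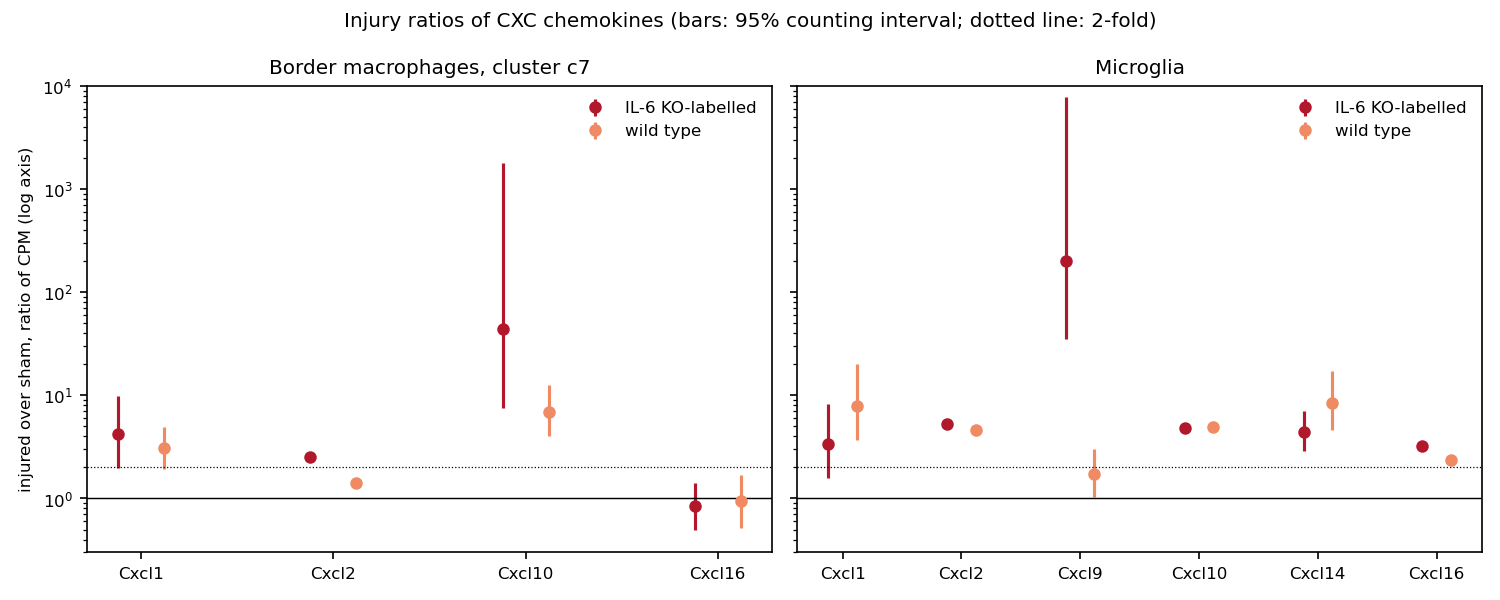
Injured-over-sham ratio of CPM (log axis, exact 95% intervals) for each chemokine in border macrophages of cluster c7 and in microglia, for the knockout-labelled and the wild-type pair. Cxcl2 and Cxcl10 lie above 1 in both classes and both pairs, whereas Cxcl16 is at 0.848 and 0.940 in c7, with intervals that include 1, against 3.21 and 2.36 in microglia. For Cxcl10 in c7, 37 of the 43 injured knockout-labelled UMIs are from 1 cell.

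Cxcl9, the interferon-induced Cxcr3 ligand, was confined to few cells. Microglia held 347, 63, 1 and 20 UMIs, or 17.9, 4.47, 0.0898 and 2.57 CPM, and 24, 13, 1 and 1 cells were positive. A single cell held 24.8% of these UMIs in the injured knockout-labelled library, 47.6% in the injured wild type and all of them in each sham library. The injured-over-sham ratio was 199 (35.5 to 7881) in the knockout-labelled pair, against 1 sham UMI, and 1.74 (1.04 to 3.04) in the wild-type pair. Knockout-labelled over wild type after injury gave 3.99 (3.05 to 5.31), a log2 difference of 0.95 with 10 CPM added to both sides, below the filter.

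In Lyz2/Ms4a7 macrophages Cxcl9 was at 70.1 CPM in the injured knockout-labelled and 2.01 CPM in the injured wild-type library. That difference passed the 2-fold call (ratio 34.9, 22.8 to 55.0; log2 2.74), but 99 of the 104 knockout-labelled UMIs came from 1 cell, and without the cell with most Cxcl9 UMIs the log2 difference was 0.31. Border macrophages had at most 1 UMI in any library. The dendritic class of the injured wild type, 49 cells gated on antigen-presentation markers, had 45.8 CPM from 4 positive cells.

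Cxcl10, the second Cxcr3 ligand measured, was higher in microglia of both injured libraries and nearly equal between the genotype labels. It was at 501 CPM in the injured knockout-labelled and 518 CPM in the injured wild-type library, against 104.5 CPM in the knockout-labelled and 104.6 CPM in the wild-type sham. The injured and sham values did not overlap, again without a share of all genes beside it. The ratio of injured over sham was 4.79 (4.51 to 5.09; log2 2.16) in the knockout-labelled pair and 4.96 (4.61 to 5.34; log2 2.21) in the wild-type pair. Knockout-labelled over wild type gave 0.966 (0.937 to 0.996) after injury and 1.00 (0.913 to 1.09) after sham surgery.

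Behind similar levels, the spread over injured cells differed. After thinning, 20.8% of injured knockout-labelled (18.97 to 22.7) and 27.1% of injured wild-type microglia (24.8 to 29.5) had a Cxcl10 UMI, against 6.48% and 10.8% in the knockout-labelled and wild-type sham. Unthinned shares were 28.3%, 35.2%, 10.4% and 16.1%, and thinned endothelial shares 4.04%, 3.64%, 4.88% and 0%. The share of positive cells was thus lower in the knockout-labelled libraries, while the mean UMIs per positive cell were higher, at 17.4, 13.9, 10.1 and 7.39. The medians were 5, 6, 5 and 4 UMIs, so after injury the knockout-labelled median was not the higher one. The highest single cell had 428 UMIs in the injured knockout-labelled library, against 220 in the injured wild type, 88 in the knockout-labelled sham and 53 in the wild-type sham. The 1% of cells with most Cxcl10 held 37.4% of its UMIs in the injured knockout-labelled and 23.9% in the injured wild-type microglia.

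In border macrophages and endothelial cells Cxcl10 was below the microglial level of the same library. Border macrophages held 132, 177, 2.70 and 49.4 CPM, and within c7 130.1, 284, 2.96 and 41.0 CPM. In c7 the injured-over-sham ratio was 44.0 (7.49 to 1778) in the knockout-labelled pair, against 1 sham UMI, and 6.94 (4.02 to 12.7) in the wild-type pair. Of the 43 injured knockout-labelled UMIs in c7, 37 came from 1 cell. In the wild-type pair the top cell held 23 of 80 injured and 11 of 16 sham UMIs. Endothelial cells had 12.7, 17.4, 56.0 and 0 CPM. The dendritic class of the injured wild type had 696 CPM in 12 of 49 cells, above the 518 CPM of microglia in that library. In the injured knockout-labelled library the dendritic class had 45.5 CPM, in 1 of 11 cells.

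In Lyz2/Ms4a7 macrophages Cxcl10 was at 455 CPM in the injured knockout-labelled and 190.0 CPM in the injured wild-type library, a ratio of 2.39 (2.20 to 2.61; log2 1.22). The shares of positive cells overlapped in their intervals, 14.0% (7.87 to 22.4) in knockout-labelled against 15.8% (13.2 to 18.6) in wild-type macrophages after thinning and 22.6% against 29.4% without, and 27.0% of the knockout-labelled UMIs were in 1 cell. The class was made up differently in the libraries: 43.4% of knockout-labelled and 55.2% of wild-type cells were in c19, 11.3% and 31.0% in c17. A further 24 knockout-labelled and 7 wild-type cells were in c7. The 48 knockout-labelled cells outside c19 and c17 held 561 of the 675 Cxcl10 UMIs (1015 CPM). The 101 wild-type cells outside them held 544 of 2646 UMIs (279 CPM). In each library the c7 cells held 9 of these, so most lay in cells of still other clusters. The 12 dendritic and antigen-presentation markers summed to 3071 CPM in the knockout-labelled and 578 CPM in the wild-type macrophages, with Cd209a, Flt3 and Xcr1 at 0 in both; the part of these differences in the Cxcl9 and Cxcl10 results was not tested. Within c19 the direction was the other way, with 18.4 CPM in knockout-labelled and 104 CPM in wild-type cells (ratio 0.178, 0.0883 to 0.320). Within c17 the levels were 308 and 288 CPM (1.07, 0.868 to 1.31), but all 103 knockout-labelled UMIs came from 1 of 12 cells. Of the 228 wild-type cells in c17, 38.2% were positive. Without the cell with most Cxcl10 UMIs the log2 difference was 0.85, no longer 2-fold.

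Among microglia, Cxcl13, the B cell attractant, was detected in the injured libraries only. It had 156 UMIs in 33 cells of the injured knockout-labelled library (8.03 CPM) and 198 UMIs in 28 cells of the injured wild type (14.1 CPM), against 0 UMIs in both sham libraries. With 3 UMIs as the limit of a count of 0, the sham limit was 0.269 CPM (knockout-labelled) and 0.386 CPM (wild type). The injured level was 29.8 times this limit where labelled knockout and 36.4 times this limit in wild type. The exact intervals of the injured-over-sham ratio had lower limits of 24.0 in the knockout-labelled and 29.4 in the wild-type pair. A single cell held 34.0% of the injured knockout-labelled and 63.6% of the injured wild-type UMIs. Lyz2/Ms4a7 and border macrophages had 0 UMIs in every library. Outside the gates, the knockout-labelled sham held 1 UMI, and 1 cell of the injured knockout-labelled library held 153 UMIs.

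Cxcl14 was low in microglia, at 9.48, 12.0, 2.16 and 1.41 CPM, and did not reach the level needed for a call. The injured libraries were above the sham libraries, with ratios of 4.40 (2.86 to 7.04) in the knockout-labelled pair and 8.48 (4.62 to 17.3) in the wild-type pair. Injured Lyz2/Ms4a7 macrophages had 19.5 CPM in the knockout-labelled and 26.9 CPM in the wild-type library (ratio 0.728, 0.481 to 1.06), with ratios of 1.31 (0.696 to 2.28) within c19 and 0.890 (0.419 to 1.68) within c17. In the injured wild type these macrophages held 50.6% of all Cxcl14 UMIs. Ungated cells had 26.1, 32.6, 57.4 and 46.7 CPM. The cycling cluster c12, led by Birc5 and Ube2c, had 47.1 CPM.

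Cxcl16, the membrane-bound Cxcr6 ligand, was found in a larger share of microglia than any of the other 6. Its level was 202 CPM in the injured knockout-labelled and 182 CPM in the injured wild-type library, against 62.9 CPM in the knockout-labelled and 77.3 CPM in the wild-type sham. Again the injured and sham values did not overlap, which describes these values only, since the share of all genes that do so is not given. The ratio of injured over sham was 3.21 (2.96 to 3.48; log2 1.54) in the knockout-labelled pair and 2.36 (2.16 to 2.58; log2 1.14) in the wild-type pair. Knockout-labelled over wild type gave 1.11 (1.05 to 1.16) after injury and 0.813 (0.728 to 0.909) after sham surgery.

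Cxcl16 differed from Cxcl2 and Cxcl10 in how it was spread over cells. It was found in 36.8%, 37.3%, 15.7% and 18.8% of thinned microglia, and in 64.1%, 64.5%, 38.4% and 42.6% without thinning, but with only 3.10, 2.67, 1.65 and 2.07 UMIs per positive cell. Thinned endothelial shares were 3.03%, 1.82%, 0% and 4.76%. Border macrophages had 112, 124, 122 and 89.9 CPM, with overlapping injured and sham values. Injured Lyz2/Ms4a7 macrophages had 264 CPM in the knockout-labelled and 156 CPM in the wild-type library (ratio 1.69, 1.51 to 1.88), in the same direction as within c19 (238 against 162 CPM) and c17 (233 against 122 CPM). The highest value of a gated class with at least 25 cells was 405 CPM in the dendritic class of the injured wild type.

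Counted over all genes, 3 of the 7 members passed the filter in microglia (20 CPM or more in either library of the pair, and 50 UMIs over the 4 libraries): Cxcl2, Cxcl10 and Cxcl16, which were above 20 CPM in all 4 libraries. All 3 were called at least 2-fold higher after injury and 0 lower in both pairs. In the knockout-labelled pair 2.28% of 6134 tested genes were called higher and 1.35% lower, and in the wild-type pair 2.84% of 6206 were called higher and 5.27% lower. The median log2 difference of the 3 was 2.16 in the knockout-labelled and 2.11 in the wild-type pair, beside -0.20 and -0.28 over all tested genes. Between the labels, 0 members were called in microglia after injury, where 0.00% of genes were called higher and 0.259% lower, and 0 after sham surgery, where 0.0650% were called higher and 0.0975% lower. In injured Lyz2/Ms4a7 macrophages 6 members passed, 2 were called higher in the knockout-labelled library (Cxcl9 and Cxcl10) and 0 lower, against 0.689% of all 5223 genes higher and 0.632% lower. Both of these calls were lost without the cell with most UMIs.

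Microglia of the injured and sham libraries were spread differently over the clusters, which were built without the 7 genes. The Slc5a3- and Ints6-led c3 held 4.76% and 5.71% of microglia in the injured knockout-labelled and injured wild-type libraries, against 30.1% and 40.7% in the knockout-labelled and wild-type sham. The Hspa1b- and P2ry13-led c5 held 3.70% and 2.35% of injured against 35.0% and 27.2% of sham microglia. The Il1a- and Gpr84-led c4 held 26.9% and 22.2% of injured against 4.25% and 2.93% of sham microglia, and the Ifit3-led c11 11.9% and 8.47% against 0.0905% and 0.439%. The Cst3- and Crybb1-led c10 held 16.2% and 12.9% of injured against 9.77% and 6.88% of sham microglia. So the clusters made up different shares of the injured and the sham gate, with overlap. Over all cells, c11 had 1664 CPM of Cxcl10, the highest of any cluster, and 25.8% of its UMIs. The Lpl- and Ch25h-led c18 had 1261 CPM of Cxcl2 and 32.8% of its UMIs, and 283 CPM of Cxcl16. The border cluster c7 had the highest Cxcl2 (2517 CPM) and Cxcl1 (122 CPM), and the neutrophil cluster c15 had 1751 CPM of Cxcl2. Cxcl9 was highest in the H2-Aa-led c14 (51.7 CPM), while c18 held 35.6% of its UMIs. For Cxcl13, c11 held 36.3% and c16, led by Cst7, 30.5% of the UMIs.

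**Figure D4:**
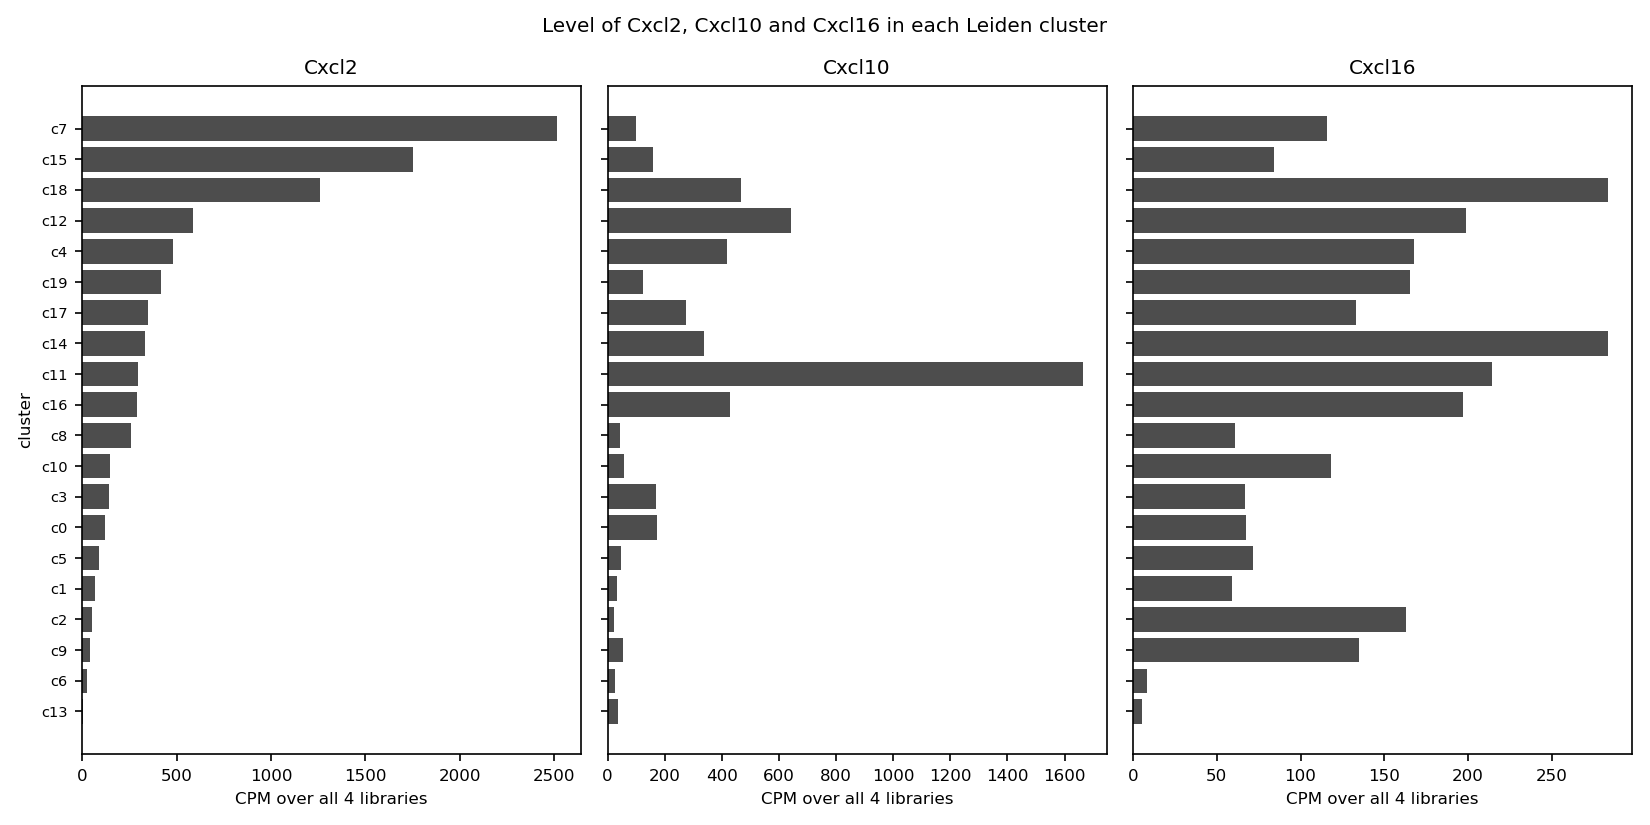
Level of Cxcl2, Cxcl10 and Cxcl16 (CPM of summed UMIs over all 4 libraries, linear axes from 0) in the 20 clusters, named by number and ordered by Cxcl2. Cxcl2 peaks in c7 at 2517 CPM and Cxcl10 in c11 at 1664 CPM, while Cxcl16 is near 283 CPM in both c18 and c14.

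Inside 4 clusters that both states filled, the injured-over-sham ratios of Cxcl2 and Cxcl16 were each smaller than over all microglia, and so were those of Cxcl10 with 1 exception. In c3 (94, 85, 333 and 278 microglia), Cxcl2 was higher after injury by a ratio of 3.14 (2.68 to 3.68) in the knockout-labelled and 2.77 (2.32 to 3.29) in the wild-type pair, and Cxcl10 by 1.84 (1.57 to 2.14) and 2.61 (2.21 to 3.09). In c4 (530, 331, 47 and 20 microglia), Cxcl2 gave 2.47 (2.00 to 3.09) and 3.40 (2.32 to 5.18), whereas Cxcl10 gave 0.903 (0.776 to 1.06) and 1.32 (1.03 to 1.70). Cxcl10 in c4 was thus close to level between injured and sham cells. In c10 (319, 192, 108 and 47 microglia), Cxcl2 gave 3.75 (2.59 to 5.62) and 1.18 (0.925 to 1.53), and Cxcl10 13.3 (5.09 to 49.5, against 4 sham UMIs) and 3.66 (1.98 to 7.51). In c5 (73, 35, 387 and 186 microglia), Cxcl2 gave 1.77 (1.34 to 2.33) in the knockout-labelled pair but 0.407 (0.184 to 0.786) in the wild-type pair, where the injured cells held 9 UMIs, and Cxcl10 gave 2.46 (1.76 to 3.39) and 0.869 (0.387 to 1.71), the second again from 9 injured UMIs. Cxcl16 ratios in these 4 clusters ran from 1.43 to 2.69 in the knockout-labelled pair and from 0.933 to 2.11 in the wild-type pair.

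**Figure D5:**
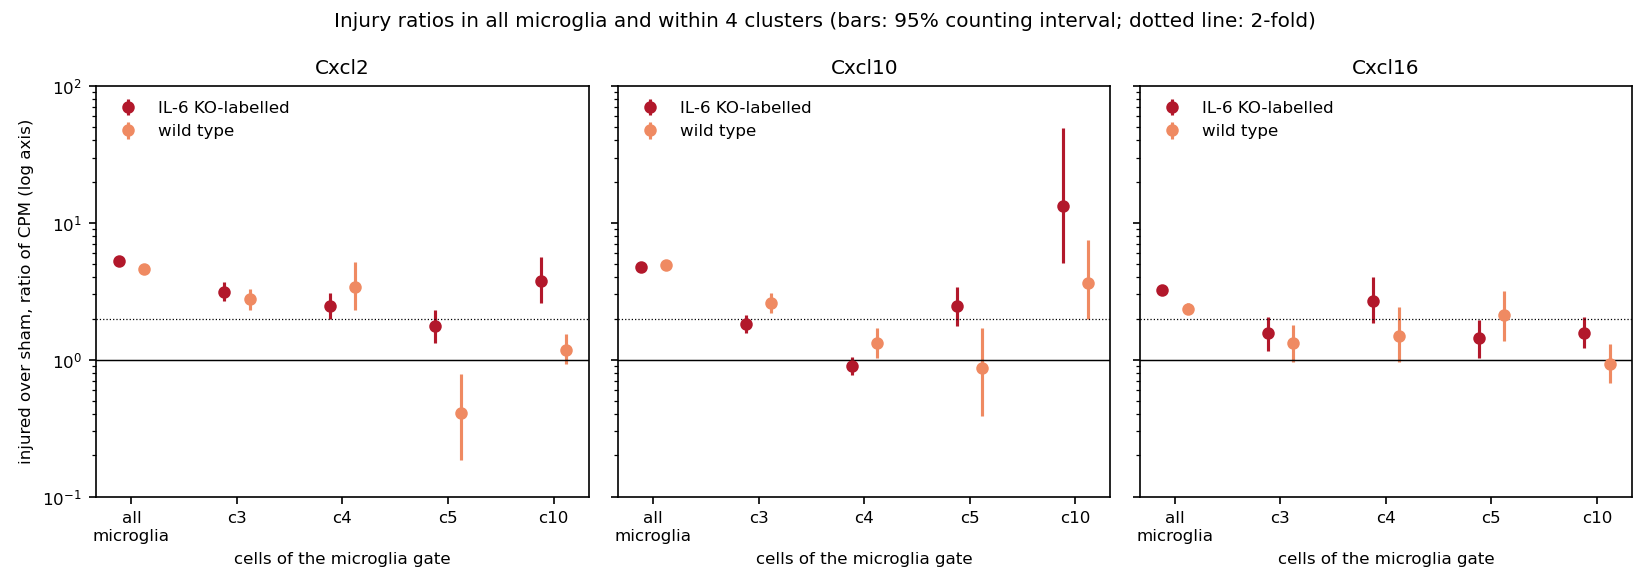
Injured-over-sham ratio of CPM (log axis, exact 95% intervals) of Cxcl2, Cxcl10 and Cxcl16 over all microglia and within clusters c3, c4, c5 and c10, for the knockout-labelled and the wild-type pair. The ratio over all microglia, 5.23 and 4.59 for Cxcl2, is above that of each single cluster, and for Cxcl10 in c4 the ratios of 0.903 and 1.32 lie near 1.

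Within a library, Cxcl2 and Cxcl10 were found partly in the same cells and partly beside different genes. Among thinned microglia, Cxcl10 was detected in 28.2% of Cxcl2-positive and 18.8% of Cxcl2-negative cells of the injured knockout-labelled library, and in 33.7% and 24.6% of the injured wild type. Tnf was detected in 64.5% of Cxcl2-positive against 32.6% of Cxcl2-negative cells (knockout-labelled) and in 58.1% against 35.6% (wild type). Ifit3, an interferon-induced gene, was detected in 20.7% of Cxcl10-positive against 12.8% of Cxcl10-negative cells (knockout-labelled) and in 16.7% against 9.72% (wild type). For Cxcl2-positive against Cxcl2-negative cells Ifit3 gave 12.2% against 15.03% (knockout-labelled) and 13.1% against 11.05% (wild type). Ifit3 was thus found more often with Cxcl10 in both injured libraries and showed no common direction with Cxcl2, while Tnf was more frequent beside either chemokine, with 56.5% of Cxcl10-positive against 34.8% of Cxcl10-negative cells (knockout-labelled) and 51.2% against 38.3% (wild type). Cxcl2-positive cells were also deeper before thinning, with medians of 12052 against 8634.5 UMIs and 10957 against 7965 UMIs in these libraries. Cxcl1 was found with Cxcl2: 3 of 5 Cxcl1-positive microglia of the injured knockout-labelled library, 8 of 8 of the injured wild type, and 16 of 18 Cxcl1-positive macrophages of the injured wild type were Cxcl2-positive.

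Of the other genes of the pathway, the receptors were sparse in microglia and 0 of 8 passed the filter there. Cxcr2, the Cxcl1 and Cxcl2 receptor, was at 799, 318, 592 and 1612 CPM in the 7, 31, 7 and 10 neutrophils, against at most 0.142 CPM in microglia. Cxcr3, the Cxcl9 and Cxcl10 receptor, was at 19.2, 18.2, 46.0 and 49.4 CPM in border macrophages and at most 1.54 CPM in microglia. Cxcr5 had 17 and Cxcr6 3 UMIs in all cells of the 4 libraries. Cxcr4, the receptor of Cxcl12, was at 173 CPM in injured knockout-labelled and 140 CPM in injured wild-type Lyz2/Ms4a7 macrophages. In microglia Cxcr4 was at most 10.9 CPM. Ackr3, a scavenging receptor of Cxcl12, was at 117, 101, 194 and 132 CPM in endothelial cells.

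Among the other CXC ligands 0 passed in microglia. Cxcl12 was an endothelial gene here, at 1269, 1448, 1273 and 2701 CPM, and Pf4, a platelet factor that border macrophages also carry, was at 2691, 1272, 4409 and 2768 CPM in the border gate. Of the chemokine-processing proteases, 2 passed in microglia and 0 were called. Adam10, which sheds Cxcl16, was at 134, 128, 186 and 184 CPM, and its relative Adam17 at 98.6, 90.3, 98.5 and 117 CPM. In injured macrophages 1 protease was called, Mmp8, at 0.674 CPM in the knockout-labelled and 30.4 CPM in the wild-type library.

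Of the NF-kB, IL-1 and TNF genes 11 passed in microglia and 1 was called higher after injury in each pair, with 0 lower. That gene was Il1b, the cytokine interleukin 1 beta, at 846 and 1075 CPM in the injured knockout-labelled and wild-type libraries against 160 and 204 CPM in the knockout-labelled and wild-type sham, ratios of 5.27 and 5.26. Nfkbia, the NF-kB inhibitor and the gene of this list with most UMIs, was at 1987, 2046, 2094 and 2450 CPM. The list's median log2 difference was 0.20 in the knockout-labelled and -0.11 in the wild-type pair. Of the interferon genes 14 passed and 7 were called higher in each pair, with 0 lower, and the median was 1.20 and 1.12. Over all tested genes 2.28% (knockout-labelled) and 2.84% (wild type) were called higher. Only 8 of the 17 listed genes passed between the sham libraries, so some passed through their injured level alone. Those genes could not have been called lower, so the count and the median lean upward. One of the interferon genes called in both pairs, named after its values were seen, was the ubiquitin-like Isg15, at 137, 127, 16.97 and 24.9 CPM. The receptor gene Ifngr1, with most UMIs of this list, was at 399, 327, 613 and 568 CPM, lower in both injured libraries but short of 2-fold. Between the labels 0 genes of these lists were called in microglia, and in injured macrophages 1 interferon gene was, Irf7, at 154 CPM in the knockout-labelled and 66.6 CPM in the wild-type library.

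Over 15 sums of class and library with at least 25 cells, and 9240 genes, the level that followed Cxcl2 most closely was that of Sdc4 (Pearson r = 0.937), then Ccl2 and Hacd4 (0.930 each). For Cxcl10 these were Smim3 (0.915), 1600014C10Rik (0.900) and Slc2a6 (0.891), and for Cxcl16 Cd52 (0.965), Ifi30 (0.960) and Csf2ra (0.957). Cxcl14 was nearest to Fabp3 (0.938), Ctsh (0.926) and Pgls (0.916), and Cxcl1 to Aldh2 (0.896), Fgd6 (0.877) and Cpne2 (0.874). Cxcl9 and Cxcl13, which rest on few cells, were nearest to Ccl5 (0.901) and Olfm4 (0.886). Between members, Cxcl10 and Cxcl16 gave 0.720, Cxcl2 and Cxcl10 0.254, and Cxcl1 and Cxcl2 0.179. The sums share libraries and depth, so these values describe likeness and carry no test.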

How the data were processed

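The authors deposited raw UMI counts of genes by cells; Cell Ranger 6.0.1 and mm10 are named per the submitters' processing notes. Barcodes needed 500 genes, 1000 UMIs and a mitochondrial share of no more than 10%. Doublet scores were made per library and the highest scored cells left out, at 0.8% per 1000 barcodes (89, 113, 30 and 35 cells in the injured knockout-labelled, injured wild-type, knockout-labelled sham and wild-type sham libraries).

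Classes came from marker gates: at least 4 of 9 microglia markers with Siglech or Sall1 and no Ms4a7; at least 2 Ms4a7 UMIs with Lyz2 at 5 or more per 10000 for Lyz2/Ms4a7 macrophages; 4 of 8 border markers; 5 of 10 endothelial markers. The Lyz2/Ms4a7 gate also needed more Ms4a7 UMIs than Siglech and Sall1 UMIs together, and fewer than 4 border markers. Neutrophils needed 3 of 8 markers. The dendritic class needed 5 of 12 markers, with at least 1 of Cd209a, Flt3, Ccr7, Zbtb46, Xcr1 and Clec9a. Cells passing more than 1 gate (15, 23, 5 and 15 in the same order) were kept apart. For microglia 60 cells sat at the marker limit and 117 ungated cells 1 marker below. The gate limits were set after seeing the data, as were the values within clusters. Clusters used 2000 variable genes without the 7 members, 30 principal components, 15 neighbours and Leiden resolution 1.

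UMIs were summed per class and library and divided by the class total (CPM). CPM carry exact Poisson, ratios exact conditional binomial and shares Clopper-Pearson 95% intervals. A gene was called at 2-fold with 10 CPM added to both sides, at least 20 CPM in 1 library and 50 UMIs over the 4, in classes with at least 25 cells in both libraries. A fit over both labels was not run. The members, lists and alternatives were chosen with earlier results of these data known. Named genes are the members, the 4 genes of each list with most UMIs or with a role as a ligand or receptor of a member, and the 3 genes most like a member. Sums used Python 3.11.15, numpy 2.4.6, scipy 1.17.1, pandas 2.3.3 and scanpy 1.11.5, and the calls were tested on simulated data.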

Additional observations from a re-analysis of the deposited data

Results flagged for a closer look

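Cxcl2 in the border macrophage gate had an injured-over-sham ratio of 2.60 (95% interval 2.34 to 2.90) in the knockout-labelled pair and 0.468 (0.432 to 0.508) in the wild-type pair. It stands here because the pairs went in opposite directions. The difference between the labels was not tested, since each group is 1 library. Beside it, 32.9% of the injured wild-type gate lay in the Lyz2-led c19, and within the gated cells of c7 the ratios were 2.52 and 1.41. In the wild-type sham, 1 cell held 337 of the 1119 UMIs of the gate, and the top cell of c7 337 of 1071. With classes taken from clusters the log2 difference was 1.14 in the knockout-labelled pair and 0.00094 in the wild-type pair, where injured and sham levels were nearly equal.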

How the results depend on the processing

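The 3 members called higher after injury in microglia kept their calls in both pairs under every alternative run: another scaling, no filter, a prior of 1 CPM, a 1.5-fold threshold, equal weight per cell, stricter barcodes or gates, classes from clusters, no doublet removal, and leaving out shared barcodes (chosen after seeing the data) or the cell with most UMIs. Median-of-ratios scaling moved the all-gene median log2 difference to 0.09 (knockout-labelled) and 0.11 (wild type), with 4.21% and 6.63% of genes then called higher and 0.533% and 1.07% lower. With classes from clusters, 1 member was higher in injured knockout-labelled over wild-type microglia (Cxcl9, log2 1.17). That setting counts all cells of c18 as microglia, and c18 was the only cluster with 99 or more Cxcl9 UMIs (224). It therefore took in the knockout-labelled cell of the Lyz2/Ms4a7 gate that held 99 UMIs. The call without that cell was not tested. In injured Lyz2/Ms4a7 macrophages, members higher numbered 0 with classes from clusters, 1 with 1 more marker per gate and 0 without the cell with most UMIs, and 1 was lower with classes from clusters, Cxcl10, reversed to -1.88. No share of all genes called under these settings stands beside these member counts. Wild-type border Cxcl2 after injury, a log2 difference of -1.09 in the gate, was level with classes from clusters (0.00094) and reversed to 0.27 with cells weighted equally (both chosen after seeing the data). Cluster composition differed as given in the report; other causes were not tested. No paired analysis was possible because the groups compared share only 1 replicate number, with 1 mouse each; a fit with injury and label as terms was not run. Depth limits Cxcl1, Cxcl9, Cxcl13 and Cxcl14 in microglia, which rest on few UMIs.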

Other observations

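In the wild-type sham library, 15 cells that passed more than 1 gate held 21.4% of all Cxcl2 UMIs of that library. Microglia held 71.3%, 41.7%, 62.2% and 30.8% of the Cxcl2 UMIs of the injured knockout-labelled, injured wild-type, knockout-labelled sham and wild-type sham libraries, 87.4%, 60.6%, 94.1% and 85.8% of Cxcl10 and 79.5%, 43.9%, 90.7% and 81.8% of Cxcl16 UMIs. Of Cxcl1 UMIs they held 30.1%, 19.002%, 8.25% and 5.22%. These shares depend on how many cells of each class a library held.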
